A study of Homo sapiens with 3 samples.

Results

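The genes described here encode 10 enzymes that make serine, glycine, asparagine, cysteine and proline: PHGDH, PSAT1, PSPH, SHMT2, MTHFD2, ASNS, CBS, CTH, ALDH18A1 and PYCR1. They were chosen by gene symbol, with no threshold on a measured value, and all 10 have a row among the 58243 genes of the tables. The libraries are RNA-seq of cells labelled as LoVo, a human colorectal carcinoma line, and as colon epithelial cells. The cells carry a Tet-On (doxycycline-inducible) short hairpin RNA against HRD1. HRD1, encoded by SYVN1, is the ubiquitin ligase that marks misfolded proteins of the endoplasmic reticulum for degradation, and the stated question was how the ER stress of its knockdown affects gene expression. Cells received 1 µg/ml doxycycline for 0, 3 or 5 days, and 1 library was made at each time. All 3 libraries carry the hairpin, the day 0 library being the uninduced one, and no library from cells given doxycycline without that hairpin was analysed here. Whether the line is 1 clone is not stated in the labels.

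Serine is made from the glycolytic intermediate 3-phosphoglycerate in consecutive steps by PHGDH, PSAT1 and PSPH. SHMT2 and MTHFD2 then pass a serine carbon into mitochondrial folate metabolism, ASNS makes asparagine from aspartate, CBS and CTH build cysteine from homocysteine and serine, and ALDH18A1 and PYCR1 turn glutamate into proline. Many of these genes are known targets of ATF4, a transcription factor whose translation increases when amino acids run short or when the ER stress sensor PERK is active.

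With 1 library per time, each ratio compares libraries and has no replicate check. Brackets give 95% limits for counting error alone. The libraries held 21308785, 22068686 and 25754188 reads in genes at day 0, day 3 and day 5, and 3 reads correspond to 0.139, 0.140 and 0.114 CPM, reads scaled to a common library size after normalisation. SYVN1 had 1212, 650 and 709 reads, so the targeted gene had its lowest levels in both induced libraries, with log2 ratios to day 0 of -0.88 [-1.02 to -0.74] and -1.05 [-1.19 to -0.92]. ATF4 had 5593, 7184 and 8091 reads, with log2 ratios of 0.38 and 0.25. Of 11 colorectal epithelial markers, 3 (KRT8, KRT18 and KRT19) reached 1 TPM, the deposited level per exon length, in each library. EPCAM stood at 0.724 and CDH1 at 0.0984 TPM at day 0, CEACAM5 had 0, 1 and 2 reads and CDX2 had no reads. Most markers of the labelled tissue were thus below 1 TPM, and whether the cells match their label was not tested. Of 8 mesenchymal markers, 5 reached 1 TPM, among them VIM at 4016 and ZEB1 at 28.1 TPM at day 0.

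At day 0 the most abundant member per unit of length was SHMT2, the mitochondrial enzyme that splits serine into glycine and a one-carbon unit, at 422 TPM. PSAT1 followed at 284, PYCR1 at 141, ALDH18A1 at 124 and MTHFD2 at 86.5 TPM. ASNS stood at 52.6, PHGDH at 37.9, PSPH at 28.7 and CTH at 10.9 TPM. CBS, the first enzyme of cysteine synthesis from homocysteine, had 0, 5 and 2 reads, of which 0, 2 and 1 were unique, so no ratio was formed for it. Its near-identical copy CBSL had 2, 0 and 0 reads. The deposited TPM divides by all annotated exon bases of a gene, and this lowers PHGDH: its exons cover 9217 bases, against 2585 in its principal transcript. Per kilobase of principal transcript, PHGDH stood at 33.2 exon CPM at day 0, close to ALDH18A1 at 34.2 and above ASNS at 24.4 and MTHFD2 at 23.3. The other positions at day 0 were SHMT2 at 198, PSAT1 at 69.8, PYCR1 at 52.5, PSPH at 8.94 and CTH at 3.59 exon CPM per kilobase. SHMT2 was therefore the highest and CTH the lowest measured member on either length scale, while the place of PHGDH in between depended on the length used.

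**Figure D1:**
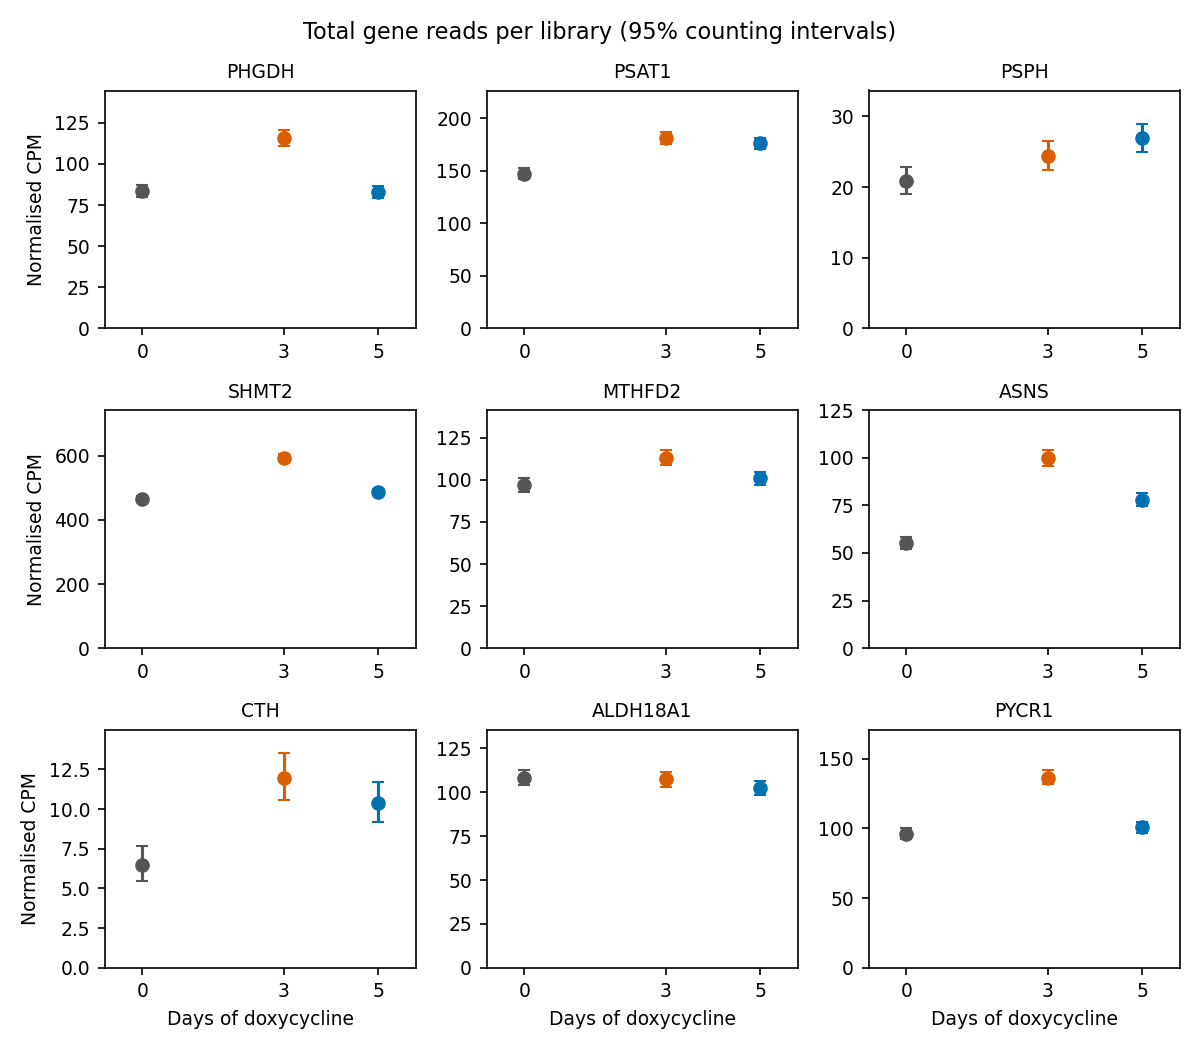
Normalised CPM from total gene reads of each of the 9 measured members (linear axes that start at 0) against days of doxycycline, 1 point per library with 95% intervals for counting error. PHGDH, SHMT2 and PYCR1 stand high at day 3 and near their day 0 level at day 5, whereas PSAT1 and PSPH stay above day 0 and ALDH18A1 is nearly level. These CPM keep the dependence on exon length and GC content. With it removed, the day 5 log2 ratios to day 0 were 0.17 for PYCR1, 0.15 for SHMT2 and 0.16 for PSAT1.

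Bases upstream of the transcription start of 6 members are shown because these genes were compared together and because 1 of them, ASNS, holds letters of a known stress response element. The sequences are from RefSeq (GRCh38.p14), 150 bases each, 5′ to 3′ on the gene's strand and ending at the base before the start. Capitals mark TGATGNAA (the core of the C/EBP-ATF response element), CCAAT (the CCAAT box) or TGACGT (part of the cyclic AMP response element), found on either strand.
ASNS, chr7:97872409-97872558, minus strand: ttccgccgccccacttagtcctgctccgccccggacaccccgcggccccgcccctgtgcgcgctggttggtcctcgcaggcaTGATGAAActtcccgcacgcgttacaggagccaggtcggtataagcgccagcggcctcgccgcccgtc
CTH, chr1:70411118-70411267, plus strand: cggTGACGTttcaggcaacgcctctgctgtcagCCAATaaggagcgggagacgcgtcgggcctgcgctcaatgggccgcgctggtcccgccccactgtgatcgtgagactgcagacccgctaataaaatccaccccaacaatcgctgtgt
PHGDH, chr1:119711784-119711933, plus strand: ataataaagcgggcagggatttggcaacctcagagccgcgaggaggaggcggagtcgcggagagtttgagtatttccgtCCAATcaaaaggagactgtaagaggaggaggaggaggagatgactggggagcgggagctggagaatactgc
PSAT1, chr9:78296975-78297124, plus strand: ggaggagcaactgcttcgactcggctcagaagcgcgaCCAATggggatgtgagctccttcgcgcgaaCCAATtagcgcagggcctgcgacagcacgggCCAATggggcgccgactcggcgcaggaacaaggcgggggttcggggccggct
MTHFD2, chr2:74198465-74198614, plus strand: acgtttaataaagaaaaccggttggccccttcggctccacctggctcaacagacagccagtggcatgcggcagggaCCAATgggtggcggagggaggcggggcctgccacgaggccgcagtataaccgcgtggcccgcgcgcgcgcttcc
ALDH18A1, chr10:95656712-95656861, minus strand: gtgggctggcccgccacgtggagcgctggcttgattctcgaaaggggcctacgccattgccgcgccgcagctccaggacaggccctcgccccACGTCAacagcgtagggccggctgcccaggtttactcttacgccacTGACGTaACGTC
ASNS holds TGATGNAA 68 bases upstream of its start, and none of the other 6 matched members holds it within the 300-base window searched (250 bases before the start to 50 after). That motif occurs in 3.62% of the 35116 RefSeq windows of this length. CCAAT occurs in 34.6% of windows and in PHGDH, PSAT1, MTHFD2, CTH and CBS, with 3 copies in PSAT1 at 113, 83 and 52 bases upstream. MTHFD2 has a further copy 184 bases upstream, outside the stretch shown. TGACGT occurs in 7.98% of windows, 147 bases upstream in CTH and 3 times in ALDH18A1, where the last copy ends 1 base past the stretch shown. CBS was matched at several starts and is not shown. PSPH, SHMT2 and PYCR1 are named only. A match of letters is a description of the sequence, and no binding was measured.

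Early in the induction, day 3 over day 0, 8 of the 9 measured members were higher in the day 3 library with intervals above no change, the exception being ALDH18A1. Among all genes, 25.2% had intervals above no change. With unique reads such members numbered 7, beside 23.4% of all genes. With the dependence on exon length and GC content removed they again numbered 7, beside 20.5% of all genes, and ALDH18A1 lay below, at -0.09 [-0.17 to -0.002]. The median log2 ratio of the 9 was 0.35, beside 0.01 over all 12593 genes that averaged 50 or more reads. CTH and ASNS, 2 of 9, were at least 1.5-fold higher with an interval excluding 1, whereas 1.29% of all genes passed that rule. No member was as much lower, beside 2.53% of all genes. With unique reads the count was 1 of 9, beside 1.32% of all genes, because ASNS no longer passed.

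Positions are those of GRCh38. In the serine branch, PHGDH (chr1:119648411-119744226, plus strand), which carries out the first and committed step, had 1805, 2472 and 2173 reads in the libraries of day 0, day 3 and day 5 (83.5, 116 and 82.8 CPM), all of them unique. Only its day 3 library stood high, with a log2 ratio of 0.47 [0.38 to 0.56] to day 0. PSAT1 (chr9:78297143-78330093, plus strand), the aminotransferase of the second step, had 3174, 3864 and 4620 reads (147, 181 and 176 CPM), of which 3172, 3861 and 4619 were unique. Both induced libraries lay above day 0, and the day 3 log2 ratio was 0.30 [0.23 to 0.37]. PSPH (chr7:56011051-56051604, minus strand), the phosphatase that releases serine, had 451, 521 and 707 reads (20.9, 24.4 and 26.9 CPM), all unique, with a day 3 log2 ratio of 0.22 [0.04 to 0.41]. Once the dependence on exon length and GC content had been removed, the PSAT1 ratio was 0.17 and the PSPH ratio 0.10 [-0.08 to 0.29], while the PHGDH ratio was 0.55. That dependence was general in the day 3 library: across 12487 genes, Spearman's rho between exon length and the log2 ratio was -0.38, given as a description. For GC content rho was 0.17 at day 3 over day 0, -0.42 at day 5 over day 0 and -0.53 at day 5 over day 3. For exon length it was -0.10 at day 5 over day 0 and 0.25 at day 5 over day 3.

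In the mitochondrial folate branch, SHMT2 (chr12:57229327-57234935, plus strand) had 10088, 12685 and 12788 reads (467, 594 and 487 CPM), of which 10088, 12684 and 12785 were unique. Its CPM was highest at day 3, a log2 ratio of 0.35 [0.31 to 0.39]. MTHFD2 (chr2:74198562-74217565, plus strand), the dehydrogenase and cyclohydrolase that acts on the folate SHMT2 produces, had 2091, 2417 and 2650 total reads (96.8, 113 and 101 CPM), of which 1391, 1577 and 1612 were unique. Its day 3 log2 ratio was 0.23 [0.14 to 0.31] from total and 0.19 [0.09 to 0.30] from unique reads. MTHFD2 shares 27.2% of its exon bases with SLC4A5 on the opposite strand, a gene given 39, 14 and 22 reads, and the labels do not state whether reads were counted by strand.

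In the cysteine branch, CTH (chr1:70411218-70439851, plus strand), which cleaves cystathionine to release cysteine, had 140, 256 and 273 reads (6.48, 12.0 and 10.4 CPM), all unique. Both induced libraries lay above day 0. At day 3 CTH was 1.85-fold higher, a log2 ratio of 0.89 [0.58 to 1.20], and 38th from the highest of the 12593 genes. Since CBS was close to absent, CTH was the only enzyme of its branch that could be measured.

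In the proline branch the 2 enzymes differed. ALDH18A1 (chr10:95605929-95656706, minus strand), which reduces glutamate in the first step, had 2342, 2292 and 2686 reads (108, 107 and 102 CPM), all unique, with a day 3 log2 ratio of -0.01 [-0.10 to 0.07]. PYCR1 (chr17:81932384-81942412, minus strand), the mitochondrial reductase of the last step, had 2081, 2916 and 2645 total reads (96.3, 137 and 101 CPM), of which 1757, 2439 and 2195 were unique. Its day 3 log2 ratio was 0.50 [0.42 to 0.59], and by CPM the day 3 library alone stood high. With the dependence on exon length and GC content removed, PYCR1 stood at 0.38 at day 3 and 0.17 at day 5. Within a library, where normalisation cancels, there were 0.889 PYCR1 reads per ALDH18A1 read at day 0 and 1.27 at day 3, a 1.43-fold difference [1.32 to 1.55]. The dependence on exon length and GC content does not cancel in this way.

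**Figure D2:**
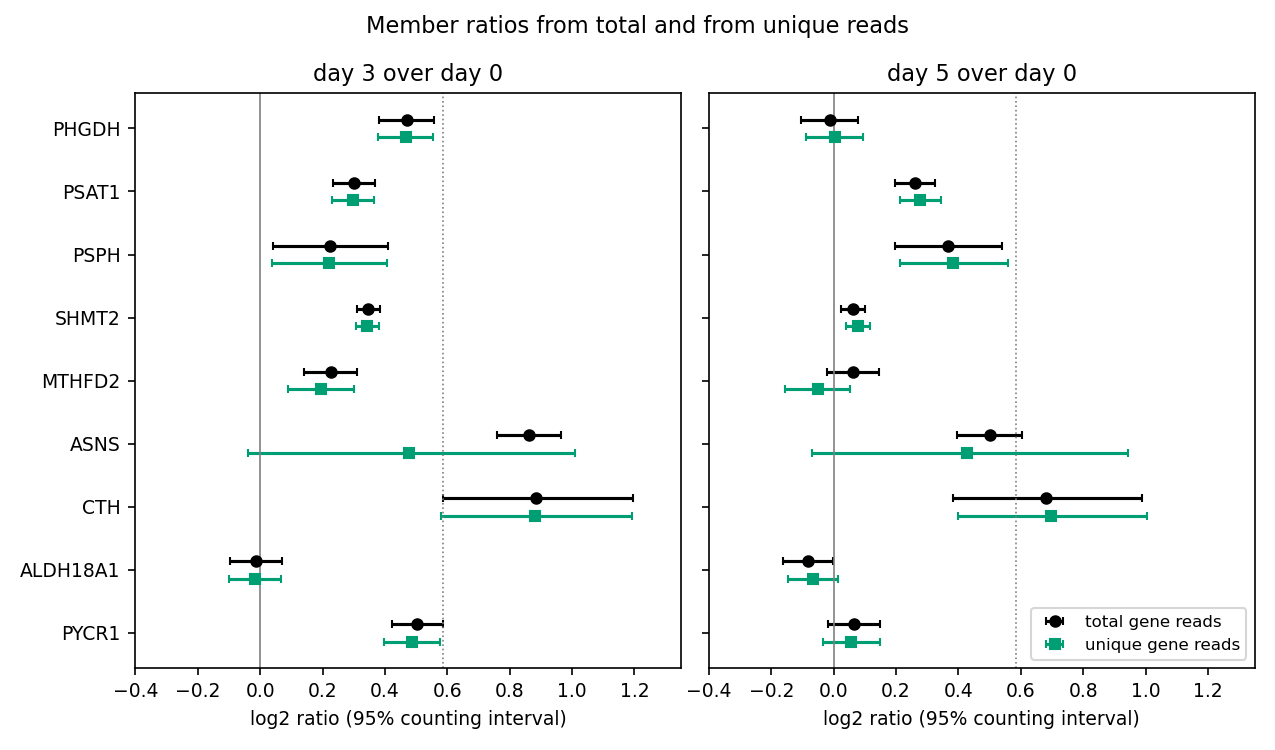
Log2 ratios of the 9 measured members at day 3 and day 5 over day 0, from total gene reads (circles) and unique gene reads (squares); bars are 95% intervals for counting error only, and the dotted line marks 1.5-fold. At day 3 over day 0 CTH (0.89) and ASNS (0.86) lie farthest right from total reads, the unique ASNS reads span 0, and ALDH18A1 (-0.01) lies on the zero line.

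ASNS, the asparagine synthetase, was the other member past 1.5-fold at day 3, and its value depends on reads shared with a second gene model. It had 1189, 2136 and 2044 total reads (55.0, 100.0 and 77.9 CPM) but 55, 76 and 89 unique reads, which is 4.63%, 3.56% and 4.35% of the total. From total reads the day 3 log2 ratio was 0.86 [0.76 to 0.97], 42nd from the highest of the 12593 genes, and from unique reads it was 0.48 [-0.04 to 1.01]. ASNS lies at chr7:97852118-97872542 on the minus strand of GRCh38. AC079781.5, a processed transcript on the same strand at chr7:97851688-97972985, covers all positions of ASNS and shares 1985 of its 4455 exon bases, which is 44.6%. AC079781.5 had 814, 687 and 1042 reads, of which 456, 370 and 613 were unique.

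The reads of both genes that could not be placed uniquely numbered 1492, 2377 and 2384. Of these, 76.0% [73.8 to 78.2], 86.7% [85.2 to 88.0] and 82.0% [80.4 to 83.5] had been given to ASNS, so that share differed between libraries. Whether the same reads could have been given to either gene cannot be told from these counts. Before any division, the non-unique reads of the pair were 1.61-fold higher at day 3 than at day 0 [1.51 to 1.72] and 1.32-fold higher at day 5 [1.23 to 1.40]. With all reads of both genes summed (2003, 2823 and 3086) the day 3 log2 ratio was 0.51 [0.43 to 0.60], a 1.43-fold difference, and the day 5 ratio was 0.34 [0.26 to 0.42]. The day 3 ratio was thus above 0 by each way of counting, although the interval from unique ASNS reads included 0. The size was 1.43-fold for the locus and 1.82-fold for the reads as deposited. The 1.5-fold mark was not reached by the summed locus or by unique ASNS reads. Most AC079781.5 reads were intronic (641 of 814, 564 of 687 and 859 of 1042). With its unique reads left out of the sum, the locus was 1.60-fold higher at day 3, a log2 ratio of 0.68 [0.59 to 0.77]. Of the deposited ASNS reads, 1040, 1936 and 1765 crossed an exon junction, and all but 2 of the unique ones did so.

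**Figure D3:**
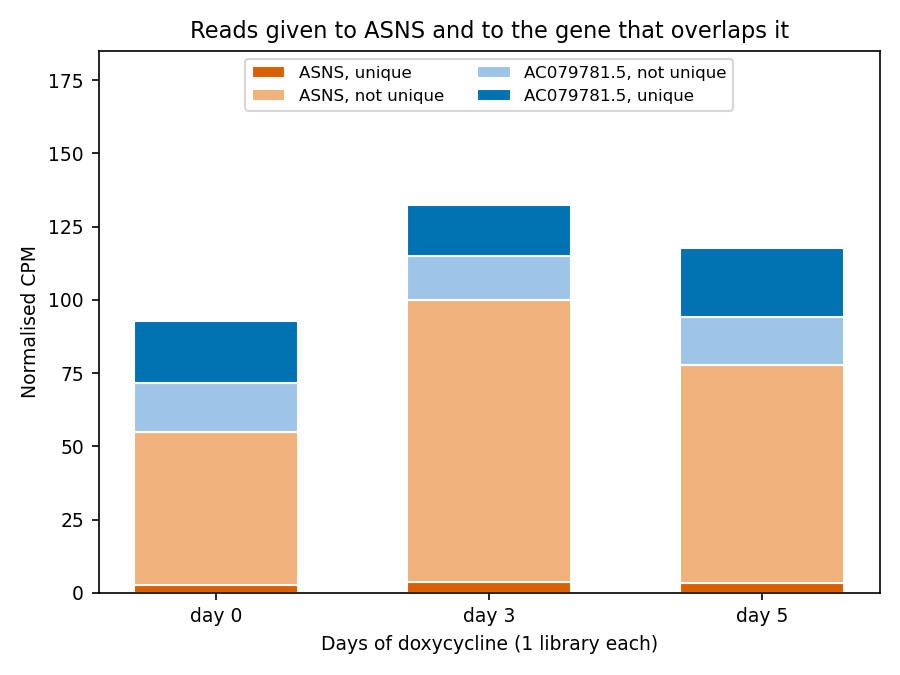
Stacked bars of normalised CPM given to ASNS (orange) and to AC079781.5 (blue), which shares exon bases with it, at day 0, day 3 and day 5, divided into unique (dark) and non-unique (light) reads. Non-unique reads of both genes make up most of the locus and number 1492, 2377 and 2384, whereas unique ASNS reads number 55, 76 and 89.

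Later in the induction, day 5 over day 0, fewer members had intervals above no change than at day 3. Of the 9, 7 were above their day 0 level (51.2% among all genes), 5 of them with intervals above no change (22.8% among all genes). The median log2 ratio was 0.07, beside 0.01 for all genes. With the dependence on exon length and GC content removed, 6 had intervals above no change, beside 17.4% of all genes. The median was then 0.16, beside -0.002 for all genes. This comparison shares its day 0 library with the one above. CTH was the 1 member of 9 at least 1.5-fold higher, beside 1.76% of all genes, and 0 were as much lower, beside 1.28%. With unique reads it was again 1 of 9, beside 1.48% of all genes. CTH was 1.60-fold higher, a log2 ratio of 0.68 [0.38 to 0.99]. Its junction-spanning reads alone (113, 191 and 180) gave a log2 ratio of 0.47, below the 1.5-fold mark. ASNS had a log2 ratio of 0.50 [0.40 to 0.61] from total and 0.43 [-0.07 to 0.94] from unique reads.

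The serine enzymes differed among themselves at day 5. PHGDH was at its day 0 level, with a log2 ratio of -0.01 [-0.10 to 0.08], while PSAT1 stood at 0.26 [0.20 to 0.33] and PSPH at 0.37 [0.20 to 0.54]. Per library there were 0.569, 0.640 and 0.470 PHGDH reads for each PSAT1 read. The relation of first to second step was thus 1.12-fold higher at day 3 [1.04 to 1.22] and 0.827-fold of day 0 at day 5 [0.765 to 0.894]. Such read relations still carry the dependence on exon length and GC content. With it removed, PHGDH stood at 0.06 [-0.03 to 0.15] and PSAT1 at 0.16 [0.09 to 0.22] at day 5, a smaller difference. SHMT2 had a log2 ratio of 0.06 [0.02 to 0.10], PYCR1 0.07 [-0.02 to 0.15] and ALDH18A1 -0.08 [-0.16 to -0.00]. With the dependence on length and GC content removed, SHMT2 stood at 0.15 [0.11 to 0.18], PYCR1 at 0.17 [0.09 to 0.26] and ALDH18A1 at -0.07 [-0.15 to 0.01]. MTHFD2 had 0.06 [-0.02 to 0.14] from total, -0.05 [-0.16 to 0.05] from unique and 0.29 [0.15 to 0.43] from its non-unique reads (700, 840 and 1038), so its direction at day 5 depends on which reads are counted.

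Of 8 liver markers, 1, 1 and 6 reached 1 TPM at day 0, day 3 and day 5. ALB, the liver's albumin gene, had 0, 0 and 114 reads and FGB, a fibrinogen chain, 0, 0 and 122. Of 6 blood markers, 0, 1 and 4 reached 1 TPM, and their reads summed to 5, 28 and 113. The part of liver and blood markers in the day 5 values was not tested, CTH being an enzyme abundant in liver. CBS, also abundant in liver, had 2 reads in the same library, too few for a ratio, and their bearing on CTH was not tested.

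Between the induced libraries, day 5 over day 3, 8 of the 9 members were lower at day 5, 5 of them with intervals below no change (26.1% among all genes), and the exception was PSPH at 0.14 [-0.02 to 0.31]. The median was -0.20, beside 0.00 over all genes. None was 1.5-fold lower, beside 0.961% of all genes, and none was as much higher, beside 2.29%. The lowest ratios were those of PHGDH at -0.48 [-0.57 to -0.40], PYCR1 at -0.44 [-0.51 to -0.36], ASNS at -0.36 [-0.45 to -0.27] and SHMT2 at -0.29 [-0.32 to -0.25]. For ASNS this is from total reads: unique reads gave -0.05 [-0.51 to 0.41], which leaves 4 members with intervals below no change, and the summed locus gave -0.17 [-0.24 to -0.10]. MTHFD2 stood at -0.16 [-0.24 to -0.08], and CTH, PSAT1 and ALDH18A1 had intervals that included no change, such as PSAT1 at -0.04 [-0.10 to 0.02]. Once the dependence on length and GC content had been removed, PYCR1 stood at -0.21 and SHMT2 at -0.15, and 7 members were lower.

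Related enzymes, in the same or another compartment, gave a comparison inside each library. Such relations still carry the dependence on exon length and GC content. There were 11.6, 16.2 and 12.5 SHMT2 reads for each read of SHMT1, its cytosolic counterpart, a relation 1.40-fold higher at day 3 [1.26 to 1.54] and 1.07-fold at day 5 [0.976 to 1.18]. MTHFD2 reads per read of MTHFD1, the cytosolic enzyme, were 1.18-fold higher at day 3 [1.09 to 1.27]. Against MTHFD1L, the mitochondrial enzyme that takes the next step, the relation was 0.969-fold [0.893 to 1.05] at day 3, a difference not detectable at this depth. Against MTHFD2L, a mitochondrial relative with the same activity, it was 1.29-fold at day 3 [1.13 to 1.48]. The exons of MTHFD1 cover 9377 bases and those of MTHFD2L 9819, against 4870 for MTHFD2. The part of exon length in these relations was not tested. PYCR1 reads per read of PYCR3, the cytosolic form, were 1.30-fold higher at day 3 [1.16 to 1.46]. This relation was also above day 0 at day 5, at 1.29-fold [1.14 to 1.45].

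The members were set beside 52 other genes of the same pathways, of which 41 reached a mean of 50 reads. At day 3, 29 of the 41 were above day 0, beside 52.0% of all genes, and their median log2 ratio was 0.10. Intervals lay above no change for 17 and below it for 7, where all genes had 25.2% above and 20.8% below. ASS1, which joins aspartate to citrulline, was the 1 gene at least 1.5-fold higher, at 0.59 [0.16 to 1.04] with 75, 112 and 109 reads, beside 1.29% of all genes. It stood at 0.47, short of the mark, once the dependence on length and GC content had been removed. Next were SDSL, a serine dehydratase-like enzyme, at 0.52, SRR, which makes D-serine, at 0.44, and SQOR, which oxidises hydrogen sulfide, at 0.43. For SQOR 59.6% of reads were unique, and these gave 0.17 [-0.13 to 0.47]. Among the lowest were GCLM, the modifier subunit of the enzyme that starts glutathione synthesis, at -0.32, AHCYL1, a relative of the methionine cycle enzyme AHCY, at -0.20, and GLUD1, which converts glutamate to 2-oxoglutarate, at -0.155. Inside the folate group, MTHFD1L at 0.27 was the highest of 12 measured genes and the median was 0.02. At day 5, 21 of the 41 were above and 20 below day 0, beside 51.2% of all genes above. None passed 1.5-fold in either direction, and the median was 0.01. GLUD1 was lowest at -0.42 (-0.20 from unique reads), followed by TYMS, thymidylate synthase, at -0.32, PYCR3 at -0.30 and GCLM at -0.16. The highest was ALDH1L1, a cytosolic folate dehydrogenase, at 0.48 [-0.07 to 1.06] with 44, 43 and 75 reads, and passed the mark at 0.61 once the dependence on length and GC content had been removed. GCSH and SRR both stood at 0.29 from total reads. However, 23.0% of GCSH reads were unique and these gave -0.07 [-0.37 to 0.22], and SRR stood at -0.19 with the deposited TPM. Day 5 over day 3, 28 of the 41 were lower and 13 higher, beside 50.1% of all genes higher, with a median of -0.07. That median was 0.00 with library totals and 0.05 with TPM, where all genes stood at 0.075 and 0.088. SDSL at -0.56, PYCR3 at -0.42, and AHCY and TYMS at -0.35 were lowest, while ALDH1L1 at 0.50 and MTHFD2L at 0.33 were among the highest. MTHFD2L stood at 0.06 once the dependence on length and GC content had been removed.

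**Figure D4:**
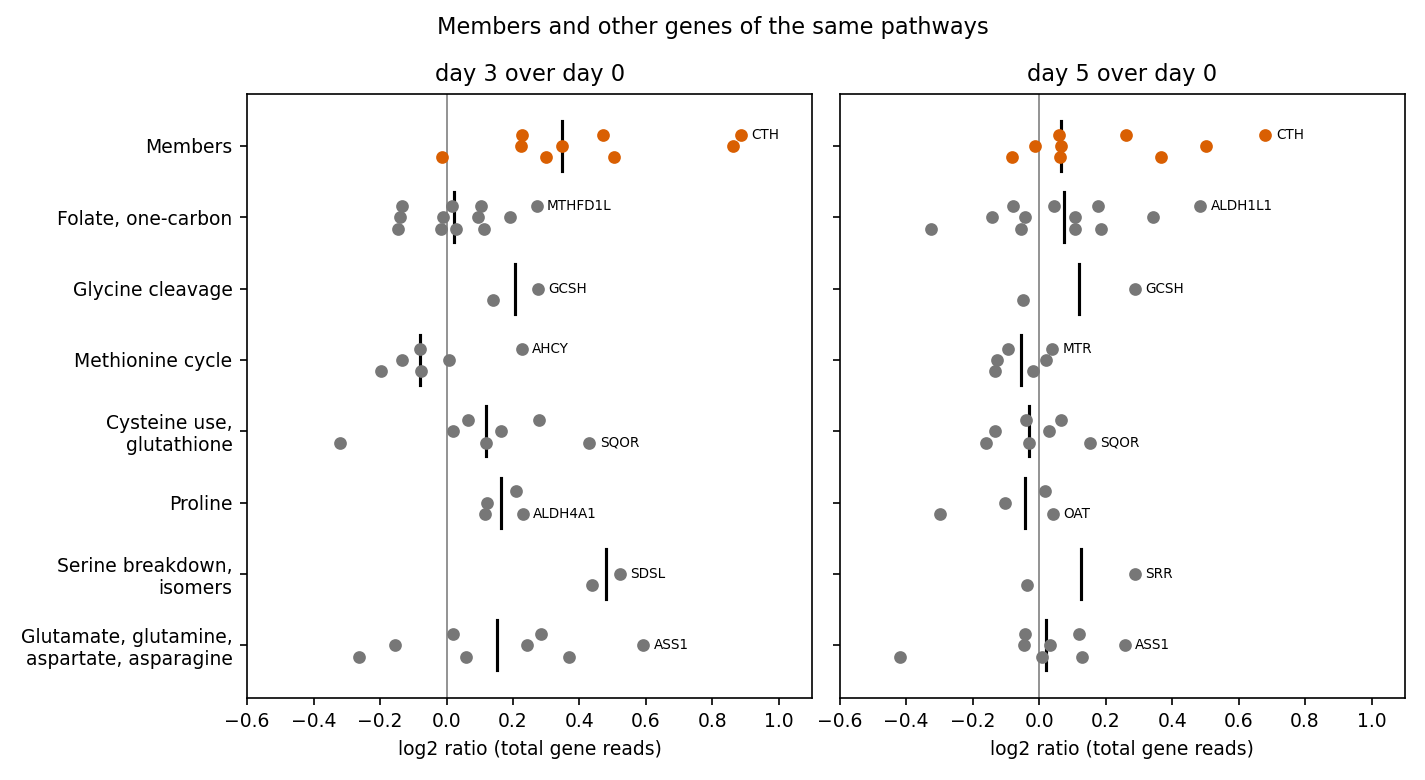
Log2 ratios of total gene reads for the 9 measured members and 41 other measured genes of the same pathways, by role, at day 3 and day 5 over day 0; each point is a gene, black bars are medians, and the highest gene of each row is named. At day 3 the members' median is 0.35 and that of the folate and one-carbon genes 0.02.

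Reads in introns, which can come from unspliced RNA, from DNA or from an overlapping gene, were few in these genes. Their ratio depended on the scaling. The 9 members summed to 427, 421 and 551 intron reads, or 1.83%, 1.42% and 1.80% of their reads, beside 6.01%, 5.59% and 6.68% over all genes. Scaled by total gene reads, their summed intron reads had a day 3 log2 ratio of -0.00 [-0.20 to 0.19], while their other reads had 0.36 [0.34 to 0.39]. Scaled by TMM sizes of the intron reads themselves, the same intron reads gave 0.27 [0.07 to 0.46]. All 12593 genes moved with the scaling in the same way, their intron reads standing at -0.03 and 0.24, so no separation of intron from exon reads is reported for the members.

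PSAT1 introns held 108, 88 and 141 reads, with day 3 log2 ratios of -0.28 [-0.70 to 0.14] and -0.01 [-0.43 to 0.41] on these scalings. PHGDH introns held 82, 91 and 107 reads, at 0.17 [-0.28 to 0.62] and 0.44 [-0.01 to 0.89]. PSPH introns held 60, 44 and 55 reads, at -0.43 [-1.03 to 0.15] and -0.16 [-0.76 to 0.43]. Exon reads of the same genes, scaled by total gene reads, stood at 0.32 for PSAT1, 0.48 for PHGDH and 0.30 for PSPH. CTH had 10, 13 and 26 intron reads, too few to place its day 3 ratio, and the 33, 43 and 69 intron reads of ASNS were all non-unique. At day 5 the members' intron reads stood at 0.09 [-0.10 to 0.27] and 0.11 [-0.07 to 0.30], and their other reads at 0.11 [0.08 to 0.13].

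**Figure D5:**
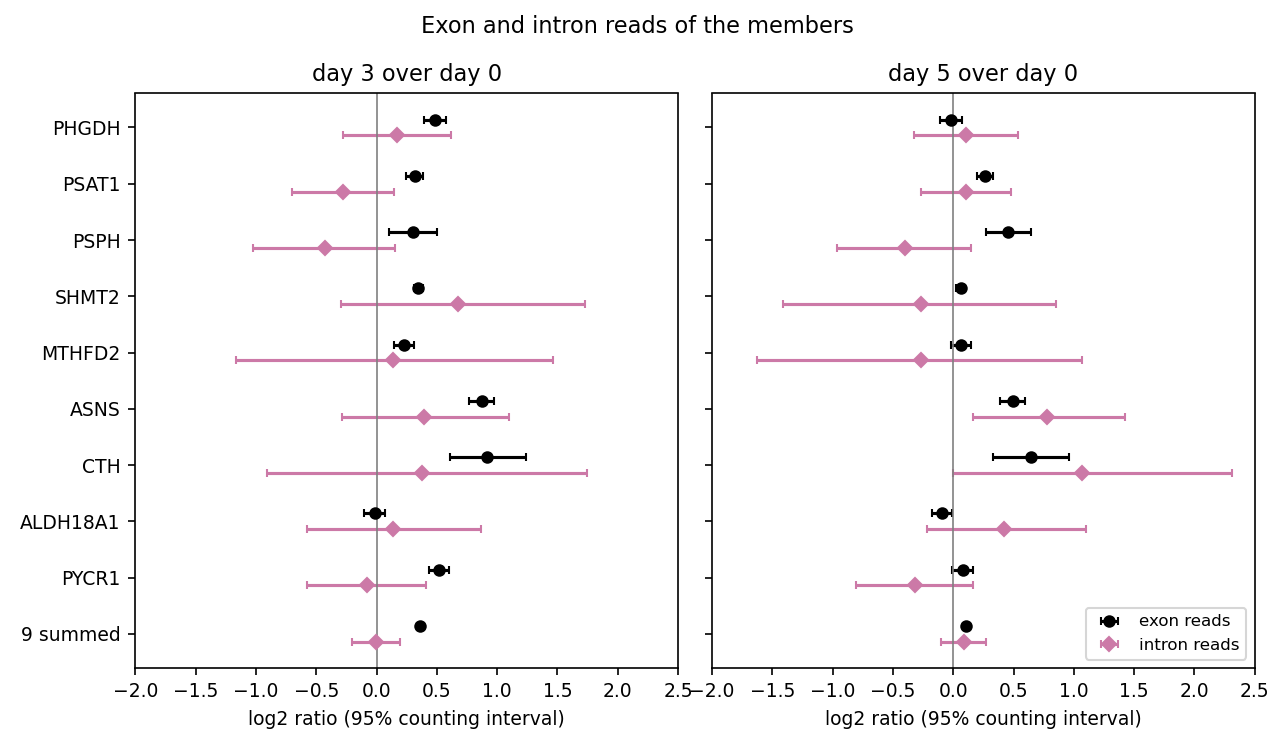
Log2 ratios of exon reads and of intron reads for each measured member and for the 9 summed, at day 3 and day 5 over day 0, with both kinds of read scaled by total gene reads and 95% intervals for counting error only. At day 3 the exon reads of PSAT1 stand at 0.32 and its intron reads at -0.28, the latter -0.01 when scaled by intron reads, and the intron intervals of all 9 members include 0.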

How the data were processed

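RNAiso Plus served for RNA extraction and a SMARTer mRNA-seq kit for the libraries, per the labels' protocols. Per the file headers, the deposited tables give read counts per gene (total and unique gene reads, exon, exon-exon and intron reads), exon length and the authors' TPM. The TPM equals exon reads per exon length within 1%, after scaling, for all genes above 0. For the aligner, no source used here gives a name. In the submitters' processing notes the build is mouse mm10, but all 58243 identifiers are human Ensembl identifiers; 57980 are in GENCODE 29 (GRCh38), and 56588 have the same start and end there. A table of the whole series, with 3 sample columns, was not used.

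Ratios are of total gene reads after TMM scaling (factors of 1.01, 0.968 and 1.02; edgeR 4.0.16, R 4.3.3). Log2 ratios used a prior count of 0.5 and exact conditional (Clopper-Pearson) 95% intervals, which cover counting error only, since no molecular identifiers are mentioned. A gene was counted at a ratio of 1.5 with an interval excluding 1, provided that it averaged 50 or more reads over the libraries. Computation used scipy 1.17.1, statsmodels 0.14.6 and pandas 2.3.3 in Python 3.11.15. The members, lists, the rule for named genes (all members, and of the 52 other genes those past the threshold, the 4 highest and 4 lowest, and relatives of members) and motifs were chosen with earlier results of these data known. Some genes that the rule names are not reported here. Alternatives were library totals, DESeq2 1.42.0 size factors, TPM with 0.5 added, unique or exon reads, a prior of 5, minimum means of 10, 200 or none, leaving out the 20 most abundant genes, and lowess removal of length and GC trends (span 0.3, 3 rounds). In simulated day 3 over day 0 counts of 12593 genes, the rule found 50 of 50 genes at 2-fold, 26 of 50 at 1.5-fold and 32 of 12393 unchanged genes. These counts were Poisson, with no variation between libraries beyond counting and no length or GC trend. They therefore do not give the rule's error rate in the real libraries.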

Additional observations from a re-analysis of the deposited data

How the results depend on the processing

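All 3 comparisons rest on 1 library per time, and depth limited CTH, unique ASNS reads and intron reads most. No paired analysis was possible because each time has 1 library. For the 9 measured members, DESeq2 1.42.0 size factors, a prior of 5 and leaving out the 20 most abundant genes left 27 of 27 ratios within their intervals, while TPM moved 14 and removal of length and GC trends 10. Chosen after seeing the data were junction-spanning reads, the summed ASNS locus, trend removal for the other pathway genes and intron scaling. The members' day 3 median log2 ratio was 0.28 with library totals, 0.21 with TPM, 0.31 with exon reads, 0.30 with trends removed and 0.29 with exon-exon reads; at day 5 it was 0.16 with trends removed. Members 1.5-fold higher at day 3 numbered 1 with unique reads, and at day 5 0 with exon-exon reads. Other pathway genes 1.5-fold higher at day 3 numbered 0 with library totals, TPM, trends removed or a minimum of 200 reads, and 2 with unique reads, a minimum of 10 or none. At day 5 over day 0, and likewise over day 3, a minimum of 10 gave 2 higher and 1 lower, and no minimum gave 3 higher and 1 lower, against 0 and 0 at a minimum of 50; with trends removed, 1 was higher at day 5 over day 0. The cause of these shifts was not tested, apart from the number of genes that each minimum admits. Day 5 over day 3, the number of members below fell from 8 to 6 with library totals and TPM.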

Other observations

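Of the 52 other pathway genes, 11 did not reach a mean of 50 reads. GLDC and AMT of the glycine cleavage system, CDO1, which oxidises cysteine, PRODH, which breaks down proline, and the serine dehydratase SDS were among them. ALDH1L2, the mitochondrial folate dehydrogenase often listed beside SHMT2 and MTHFD2, had 3, 10 and 5 reads in the 3 libraries, in order of time. BHMT, a liver enzyme that remethylates homocysteine, had 2, 0 and 33 reads, and was picked out after its values were seen. Its day 5 reads lie in the library in which APOA1 had 78 reads after 0 and 2, and their source was not tested.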
